A study of Homo sapiens with 6 samples.

Results

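Polycomb repressive complex 2 (PRC2) and its inhibitor CXorf67 were followed in RNA sequencing data of MDA-MB-231, an established triple-negative breast adenocarcinoma cell line. The group held 10 of the 17100 genes in the deposited table: CXorf67 (also called EZHIP), EZH1, EZH2, EED, SUZ12, RBBP4, RBBP7, JARID2, AEBP2 and MTF2. They were selected by gene symbol, from knowledge of the complex and with their fold changes between these same libraries already known, so that their changes are given as a description without p-values. The study compared 3 libraries of vehicle-treated cells with 3 libraries of cells given 1 µM guadecitabine (SGI-110) for 96 h and then kept 24 h without the drug. Guadecitabine is a dinucleotide from which decitabine, a cytidine analog that traps DNA methyltransferases in DNA, is set free. All libraries came from 1 cell line and 1 dose, and per the study's methods the replicates were independent experiments.

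PRC2 places methyl groups on histone H3 at H3K27, a mark of repressed chromatin found at developmental genes. Its core holds a catalytic subunit, EZH2 or the related EZH1, together with EED, SUZ12 and a histone-binding protein, RBBP4 or RBBP7. Accessory subunits bind this core in alternative sets, one with MTF2 and another with JARID2 and AEBP2, and help to bring it to chromatin. CXorf67 is a protein of germ cells and of some ependymomas that binds EZH2 and inhibits the complex.

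Library totals ranged from 17602570 to 22277442 reads for vehicle and from 8792127 to 21410849 for guadecitabine, whose replicate 2 was the shallowest library. Vehicle replicate 3 stood apart, with 20 genes at 0 reads where the other libraries had 1593 to 2517. The cause was not tested. In that library 2030 of the 2038 genes at 0 in the other vehicle libraries had reads, at a median of 7.72 reads per kb. The cell line markers VIM, CD44, AXL and KRT18 had at least 1947 normalized reads per kb in every library. The hormone receptor genes ESR1 and PGR, whose absence is part of the triple-negative state, had at most 1 read outside vehicle replicate 3 and 67 and 43 reads in it. The leukocyte marker PTPRC had at most 3 reads and the hepatocyte marker ALB at most 2 outside vehicle replicate 3, and 36 and 11 reads in it. The endothelial marker PECAM1 had 39 to 104 reads in every library. The germ cell marker DDX4 had 0, 0 and 26 reads in vehicle and 48, 17 and 34 in guadecitabine.

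The sequences below show where the genes at both ends of the pattern begin, the silent inhibitor gene and the expressed subunit genes. CXorf67 lies on the plus strand of chromosome X from 51149767 to 51151689 in hg19, as 1 exon of 1923 bp. Its exon held 98 CpG dinucleotides in the GENCODE model closest to the deposited one, or 5.17 per 100 bases, against 1.05 to 3.63 in the exons of the other members. The 217 bases before its deposited start, chrX:51149550-51149766 on the plus strand, were taken from the RefSeq promoter table of GRCh38.p14 and matched to 1 place in GRCh37. They are printed with each of their 14 CpG sites in capitals.
CXorf67 upstream: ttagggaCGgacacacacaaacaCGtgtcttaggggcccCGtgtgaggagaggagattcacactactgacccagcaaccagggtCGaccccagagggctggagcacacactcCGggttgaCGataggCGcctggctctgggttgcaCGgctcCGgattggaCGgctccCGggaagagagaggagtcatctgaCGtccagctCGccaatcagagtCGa

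The promoter window of each gene, 250 bases before to 50 after its RefSeq start, was compared with all 35116 windows of that table. All 10 members matched by symbol, and 4 of them, EZH2, RBBP4, RBBP7 and JARID2, had more than 1 start. The CXorf67 window held 18 CpG sites against a median of 14, and 55.5% of windows had fewer. EED, with 16 CpG sites, was the only other member below 24, while the first EZH2 window held 46 and 97.1% of windows had fewer.

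E2F factors are known to bind the promoters of PRC2 genes in dividing cells, so the windows were searched on both strands for TTTCGCGC, TTTGGCGC, TTTCCCGC and TTTGCCGC, which overlap each other in their letters. At least 1 of them was present in 3.31% of all windows, and in a window of EZH1, EZH2, SUZ12, AEBP2 and MTF2. Some members have more than 1 window, and windows were not matched for CpG content, so no comparison with that share is drawn. The 30 bases around each match in the members are printed in the direction of the gene, with the motif, or its reverse complement in EZH1 and MTF2, in capitals. The match says only that these letters occur there. In EZH2 the motif begins at base 2 of the transcript and in MTF2 at base 6, and in the other genes it lies upstream of the RefSeq start, which for AEBP2 is 925 bases downstream of the deposited one.
EZH1 site, chr17:40897155-40897184, minus strand: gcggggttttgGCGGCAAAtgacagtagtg
EZH2 site, chr7:148581364-148581393, minus strand: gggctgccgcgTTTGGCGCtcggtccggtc
SUZ12 site, chr17:30263826-30263855, plus strand: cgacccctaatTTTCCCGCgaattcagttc
AEBP2 site, chr12:19593372-19593401, plus strand: caaggcgacgtTTTGCCGCgatccccctgc
MTF2 site, chr1:93544834-93544863, plus strand: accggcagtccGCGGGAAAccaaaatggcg

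CXorf67, the inhibitor, went from almost no reads in vehicle to low but regular counts after guadecitabine. EZH1 was lower, and the other subunit genes changed less than EZH1. Fitted changes of the 8 subunit genes other than EZH1 ran from −20.1% for EZH2 to 15.6% for MTF2. Coordinates are those deposited, in hg19. Values below are raw reads or normalized counts, which are reads scaled by TMM factors to the mean library total of 17911210. The log2 fold changes are guadecitabine against vehicle from edgeR, with their standard error (SE).

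**Figure D1:**
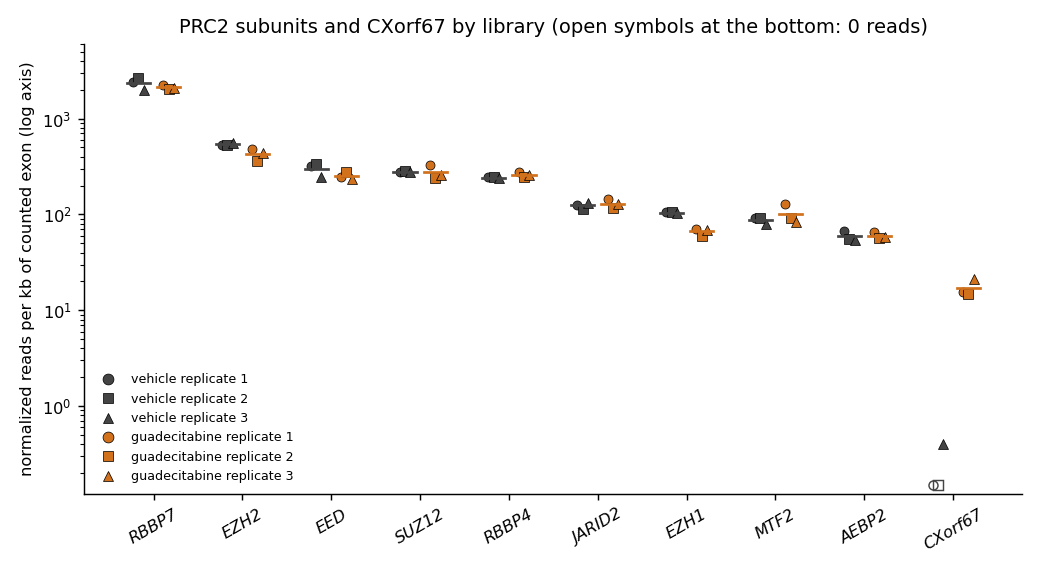
Normalized reads per kb of counted exon (log axis) of the 10 members in each library, with points for the 3 vehicle and 3 guadecitabine libraries. CXorf67 lies at the bottom, at 0, 0 and 0.402 in vehicle and between 14.8 and 21.0 after guadecitabine, and RBBP7 at the top, with group means of 2348 and 2118.

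CXorf67 had 0, 0 and 1 raw reads in the vehicle libraries and 37, 14 and 40 in the guadecitabine libraries. Every guadecitabine library was above every vehicle library, and the lowest count, 14, was that of the shallowest library. After scaling, the guadecitabine libraries were closer to each other, at 29.96, 28.5 and 40.4 normalized counts, with a mean of 32.9 ± 6.48 (SD, n = 3). In CPM, its share of the normalized library total, the gene had 0, 0 and 0.0431 in vehicle and 1.67, 1.59 and 2.25 in guadecitabine. A count of 3 reads, taken as the limit of detection, equals 0.129 to 0.177 CPM in the vehicle libraries, so the level in each of them was under that limit.

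The 91 reads of CXorf67 in guadecitabine against 1 in vehicle gave a ratio of rates of 110, with an exact 95% interval of 19.3 to 4402. That interval covers counting error only, and reads are not independent molecules. The fitted log2 fold change was 6.29 (SE 0.88, 95% interval 4.31 to 8.28) and depends on the prior count that edgeR adds to a group near 0. It was 7.98 without vehicle replicate 3, the library that held the single read. CXorf67 passed the filter on low counts only through the guadecitabine libraries, so a gene like it had to differ to be tested at all.

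The single read of CXorf67 in vehicle replicate 3 was low for that library. Genes at 0 in the other vehicle libraries had a median of 7.72 reads per kb there, and CXorf67 had 0.520. Only 0.491% of those genes were at or below that value. At the median density CXorf67 would have held 14.8 reads, so the reads that set this library apart were nearly absent from this gene. In the plot of levels CXorf67 therefore shows 1 point above 0 among the vehicle libraries.

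EZH1, the catalytic subunit that prevails in cells that do not divide (chromosome 17, 40852293 to 40897071, minus strand), was the only subunit gene with a clear drop. Its 489.5, 492.1 and 476.5 normalized counts in vehicle compared with 330.3, 278.8 and 316.0 in guadecitabine. The vehicle libraries were close to each other, at 486 ± 8.34, and all guadecitabine libraries were below them. The log2 fold change was −0.65 (SE 0.11, 95% interval −0.90 to −0.40), a change of −36.2% with an interval from −46.3% to −24.2%. With bulk RNA, fewer cells that express a gene and less RNA per cell cannot be told apart.

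EZH2, the catalytic subunit of dividing cells and the partner bound by CXorf67 (chromosome 7, 148504464 to 148581441, minus strand), was the more abundant of the pair. It had 1428, 1441 and 1528 normalized counts in vehicle and 1317, 987.1 and 1199 in guadecitabine. The groups did not overlap, although guadecitabine replicate 1 lay closer to vehicle than to replicate 2. The log2 fold change was −0.32 (SE 0.12, 95% interval −0.60 to −0.05). In the 6 fits without 1 library it ran from −0.42, without guadecitabine replicate 1, to −0.22.

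EED, which reads the H3K27 mark and activates the enzyme (chromosome 11, 85955806 to 85989785, plus strand), had 642.8, 668.4 and 491.2 normalized counts in vehicle and 493.9, 555.6 and 468.4 in guadecitabine. The lowest vehicle value, that of replicate 3, fell among the guadecitabine values, so the groups overlapped. The log2 fold change was −0.25 (SE 0.14, 95% interval −0.57 to 0.07). In the 6 fits without 1 library it ran from −0.38, without vehicle replicate 3, to −0.16.

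SUZ12, the scaffold on which the core and the accessory subunits meet (chromosome 17, 30264044 to 30328057, plus strand), gave the smallest difference of the members. Its 1240, 1266 and 1231 normalized counts in vehicle lay inside the guadecitabine range of 1465, 1083 and 1153. The log2 fold change was −0.01 (SE 0.13, 95% interval −0.30 to 0.28). In percent that interval runs from −18.7% to 21.3%, so changes within it were not resolved at this spread.

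RBBP4 and RBBP7 are close relatives that bind histones and also serve other chromatin complexes. RBBP4 lies on chromosome 1, 33116749 to 33151812, plus strand, and RBBP7 on chromosome X, 16862775 to 16888534, minus strand. RBBP4 had 1425, 1409 and 1372 normalized counts in vehicle and 1584, 1433 and 1479 in guadecitabine. Its groups did not overlap, but the highest vehicle and the lowest guadecitabine library were nearly equal, and the log2 fold change was 0.10 (SE 0.10, 95% interval −0.12 to 0.32). RBBP7, the most abundant member, had 4888, 5325 and 4008 in vehicle and 4484, 4136 and 4209 in guadecitabine. All guadecitabine values of RBBP7 lay within the vehicle range, with a log2 fold change of −0.15 (SE 0.12, 95% interval −0.42 to 0.12).

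The accessory subunits JARID2 (chromosome 6, 15246206 to 15522273, plus strand), AEBP2 (chromosome 12, 19592608 to 19675173, plus strand) and MTF2 (chromosome 1, 93544792 to 93604638, plus strand) overlapped between groups in all 3 cases. JARID2, a DNA-binding relative of histone demethylases that lacks their activity, had 765.7, 702.2 and 802.4 normalized counts in vehicle and 876.8, 712.3 and 787.5 in guadecitabine. AEBP2, a zinc finger protein, had 344.8, 281.9 and 278.8 in vehicle and 332.0, 289.0 and 294.8 in guadecitabine. Neither moved beyond the spread of its libraries, with log2 fold changes of 0.07 (SE 0.11) for JARID2 and 0.02 (SE 0.13) for AEBP2. MTF2, a Polycomb-like protein that binds DNA rich in unmethylated CpG, had 355.2, 351.6 and 305.1 in vehicle and 492.3, 350.1 and 320.0 in guadecitabine. The high value of replicate 1 set its mean, and the log2 fold change was 0.21 (SE 0.17, 95% interval −0.18 to 0.59).

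**Figure D2:**
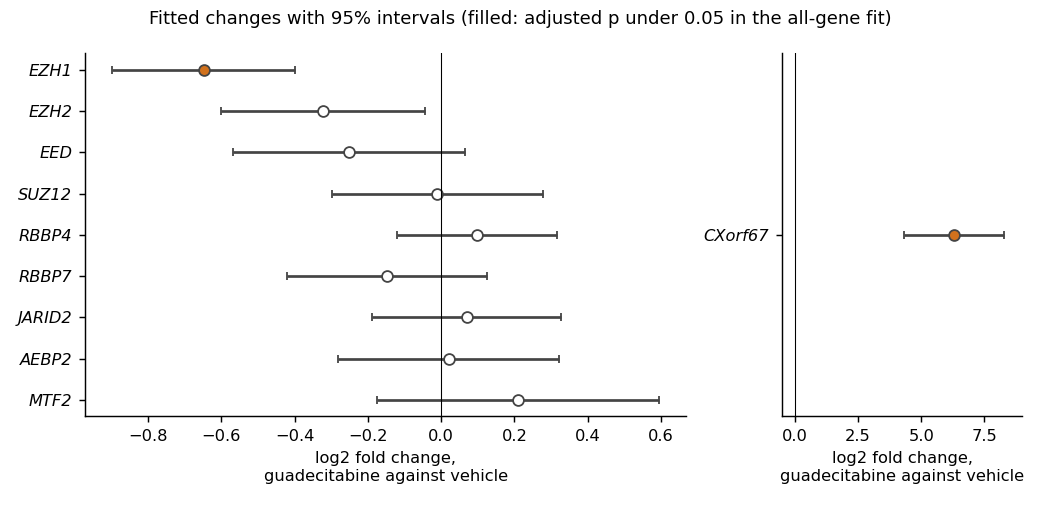
Log2 fold change (guadecitabine against vehicle) of the 10 members, ordered by role, with 95% intervals from edgeR (3 libraries per group). The intervals run from 4.31 to 8.28 for CXorf67, from −0.90 to −0.40 for EZH1 and from −0.60 to −0.05 for EZH2. They are a description, as the members were chosen with these changes known. CXorf67 passed the filter on low counts only through the guadecitabine libraries.

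At an adjusted p under 0.05 the 10 members gave 1 higher call and 1 lower call. Of the 13322 genes tested 37.7% were called, 19.3% higher and 18.4% lower, and the members were picked by values of this contrast, so nothing is read from their count. The groups did not overlap for 4 members, CXorf67, EZH1, EZH2 and RBBP4, and for 51.7% of all genes tested. The median log2 fold change of the members was 0.01 and that of all genes tested 0.02. For scale, the 10421 genes with a mean normalized count of at least 100 had a median absolute log2 fold change of 0.32 and a median SE of 0.13.

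Levels of different genes were compared per kb of counted exon. In vehicle the order was RBBP7 (2348 ± 332 normalized reads per kb, SD, n = 3), EZH2 (538 ± 19.9), EED (299 ± 47.7), SUZ12 (278 ± 4.07), RBBP4 (242.5 ± 4.71), JARID2 (124 ± 8.32), EZH1 (104.6 ± 1.80), MTF2 (87.7 ± 7.27), AEBP2 (59.2 ± 7.30) and CXorf67 (0.134 ± 0.232). Only EED and SUZ12 overlapped among neighbours in this order. RBBP7 exceeded 94.4% of the genes tested and AEBP2, the lowest subunit, 32.2%, while the inhibitor CXorf67 exceeded 0.0300%. That last rank rests in part on vehicle replicate 3. There ISL1, at 0 in the other vehicle libraries, had 47 raw reads and CXorf67 had 1. It is therefore not compared with the rank of CXorf67 after guadecitabine.

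After guadecitabine RBBP7 (2118 ± 91.0 normalized reads per kb) and EZH2 (429 ± 61.5) kept the first places. SUZ12 (275.5 ± 45.4), RBBP4 (259 ± 13.4) and EED (252 ± 22.3) followed and overlapped with each other in this order, then JARID2 (129.9 ± 13.5) and MTF2 (100.7 ± 23.9), which overlapped as well. EZH1 (66.4 ± 5.72) came next, below MTF2 and overlapping with AEBP2 (59.9 ± 4.57). CXorf67 remained the lowest at 17.1 ± 3.37, above 14.4% of the genes tested. Its level per kb there was between 14.8 and 21.0, and that of EZH2 between 362.5 and 484.

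The ratio of alternative subunits was taken within each library, which cancels the scaling between libraries. EZH2 per kb was 4.98, 5.00 and 5.47 times EZH1 in vehicle and 6.80, 6.04 and 6.48 times in guadecitabine. The groups did not overlap, and the log2 difference of 0.32 was larger than the pooled SD between libraries of 0.08. EZH2 made up 83.3% to 84.5% of the sum of both in vehicle and 85.8% to 87.2% in guadecitabine. That sum was 629.6, 635.2 and 663.6 reads per kb in vehicle and 554.9, 422.5 and 508.5 in guadecitabine, lower in every guadecitabine library. These ratios rest on the values that chose the members, so no test was made.

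RBBP4 per kb was 0.102, 0.0924 and 0.120 of RBBP7 in vehicle and 0.123, 0.121 and 0.123 in guadecitabine. The guadecitabine libraries were higher, but vehicle replicate 3 was close to the lowest of them. Subunits that mark the alternative forms of the complex kept overlapping ratios, with MTF2 to JARID2 at 0.711 ± 0.0979 in vehicle and 0.771 ± 0.123 in guadecitabine. MTF2 to AEBP2 was 1.49 ± 0.148 and 1.67 ± 0.269, and JARID2 to AEBP2 2.12 ± 0.276 and 2.17 ± 0.0933.

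**Figure D3:**
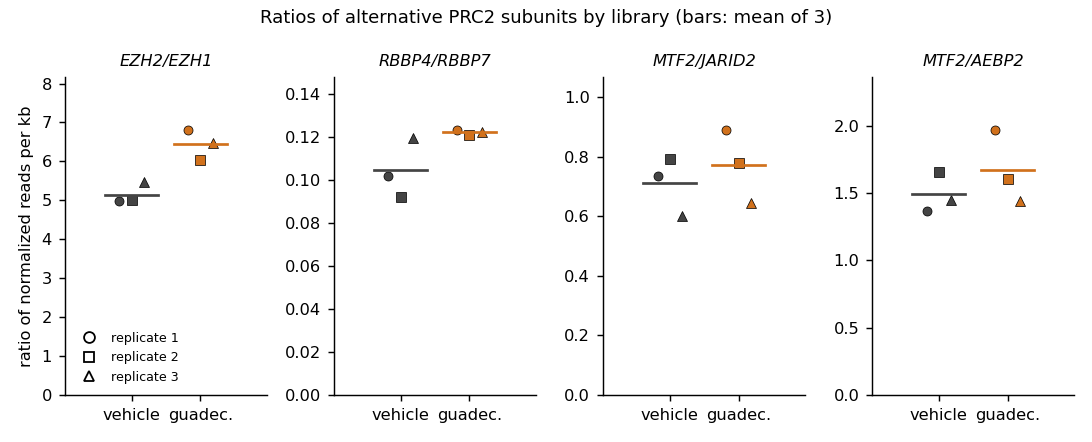
Ratios of reads per kb between alternative PRC2 subunits in each library (linear axis), with points for the 3 vehicle and 3 guadecitabine libraries. The EZH2 to EZH1 ratio lies at 4.98 to 5.47 in vehicle and 6.04 to 6.80 in guadecitabine, and the MTF2 to JARID2 and MTF2 to AEBP2 ratios overlap between groups.

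Most exon sequence of the members was unique in the genome by exact match. In the closest GENCODE models, between 90.1% and 100% of the 50-base stretches of each member's exons occurred once. CXorf67, EZH1, RBBP7, AEBP2 and MTF2 stood at 100% and RBBP4 was lowest. Copies that differ by a few bases do not lower these values. The RBBP4 model is 7883 bp long against 5780 bp counted, so its value includes sequence that was not counted. In these models RBBP4 overlaps SYNC and EED overlaps a long noncoding RNA, both on the opposite strand. The counting is not stated to use strand, so reads of overlapping exons that were counted cannot be told apart. In vehicle replicate 3, the median density of genes at 0 in the other vehicle libraries would make up 0.300% of the reads of RBBP7, 1.06% of EZH2, 5.81% of EZH1, 7.52% of MTF2 and 10.9% of AEBP2.

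The members were then set beside the genes that work with PRC2. None of these lists shares a gene with the members, and all were written with earlier results of these libraries known. Each count is of genes with an adjusted p under 0.05 from edgeR over all 13322 genes, of which 19.3% were higher and 18.4% lower.

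Of 6 further PRC2 partners, 2 rose, 2 fell and 2 did not pass the test, with a median log2 fold change of 0.34. C17orf96 (EPOP), which joins PRC2 in the set that holds MTF2, had 341.9, 297.8 and 243.3 normalized counts in vehicle. It rose to a mean of 1059 ± 219 in guadecitabine from 294 ± 49.4 (log2 fold change 1.84, SE 0.18, adjusted p = 6.8e-05), above every member other than CXorf67 in fold. C10orf12, part of the LCOR locus that encodes a PRC2-binding protein, rose from 114.6 ± 14.5 to 199 ± 33.4 (0.78, SE 0.18, adjusted p = 0.00924). Its relative LCORL fell from 117.5 ± 16.7 to 68.55 ± 11.1 (−0.77, SE 0.22, adjusted p = 0.0230).

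PHF19, a Polycomb-like protein related to MTF2, fell from 4448 ± 316 to 3183 ± 83.4 normalized counts (−0.48, SE 0.10, adjusted p = 0.00460). PHF1, the other relative of MTF2, did not pass the test, with a log2 fold change of 0.44 (adjusted p = 0.0641), and LCOR did not either, at 0.24. The 2 partners that fell were 1 without vehicle replicate 2, guadecitabine replicate 2 or guadecitabine replicate 3. The 2 partners that rose were 3 under 4 of the alternative settings and without guadecitabine replicate 1. The 3 Polycomb-like genes therefore had log2 fold changes of 0.21 for MTF2, 0.44 for PHF1 and −0.48 for PHF19, of which PHF19 alone passed the test in the fit used here.

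PRC1, the second Polycomb complex, binds the mark that PRC2 places and adds ubiquitin to histone H2A. Of its 24 listed subunits 1 rose (4.17%), 6 fell (25%) and 17 did not pass the test, with a median log2 fold change of −0.05. SCMH1, a Polycomb group protein, fell from 1282 ± 89.2 to 575 ± 12.97 normalized counts (−1.16, SE 0.10, adjusted p = 4.4e-05). The chromobox genes CBX7 and CBX6, whose proteins read the H3K27 mark, fell by 0.77 and 0.72 on the log2 scale (adjusted p = 0.00972 and 0.00513). BCOR, a subunit of a variant PRC1, was the 1 that rose (0.89, SE 0.11, adjusted p = 0.00026), and 2 rose without vehicle replicate 3 or guadecitabine replicate 2. The 6 that fell were 3 without vehicle replicate 1 or 2, 2 without guadecitabine replicate 3 and 1 with a fold threshold of 1.5.

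Genes whose products remove or oppose the PRC2 mark moved in both directions, with 2 higher, 2 lower and 8 not passing the test among 12 tested and a median of −0.10. The H3K27 demethylase genes KDM6B and KDM6A rose from 291 ± 55.4 to 491 ± 22.2 and from 411 ± 5.26 to 548 ± 93.0 normalized counts (adjusted p = 0.00369 and 0.0330). The H3K36 methyltransferase genes WHSC1 (NSD2) and NSD1 fell by 0.49 and 0.39 on the log2 scale (adjusted p = 0.00431 and 0.0293). The higher count was 1 without any library other than guadecitabine replicate 2, the lower count was 1 without vehicle replicate 1 or guadecitabine replicate 2 or 3, and both were 0 with a fold threshold of 1.5. ASXL3, the 1 listed gene not tested, had 29 reads in vehicle replicate 3 and 0 elsewhere.

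E2F factors and their RB partners, which control genes of the cell cycle, had 1 gene higher, 7 lower and 5 not passing the test of 13, with a median log2 fold change of −0.39. RB1, the retinoblastoma tumor suppressor, fell from 1031 ± 33.4 to 678 ± 135 normalized counts (−0.60, SE 0.14, adjusted p = 0.0103). Its relative RBL1 and the repressor E2F7 fell by 0.50 and 0.49 on the log2 scale (adjusted p = 0.0242 and 0.0166). E2F6, a repressor that binds Polycomb proteins, was the 1 that rose (0.60, SE 0.16, adjusted p = 0.0143), and 0 rose without vehicle replicate 1 and 2 without vehicle replicate 3. The 7 lower genes, which include RBL2, E2F2, TFDP1 and TFDP2, were 1 without vehicle replicate 1, 2 without guadecitabine replicate 3, 4 without guadecitabine replicate 2 and 0 with a fold threshold of 1.5. The 5 members with an E2F-type motif in a promoter window, printed above, had log2 fold changes from −0.65 (EZH1) to 0.21 (MTF2).

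**Figure D4:**
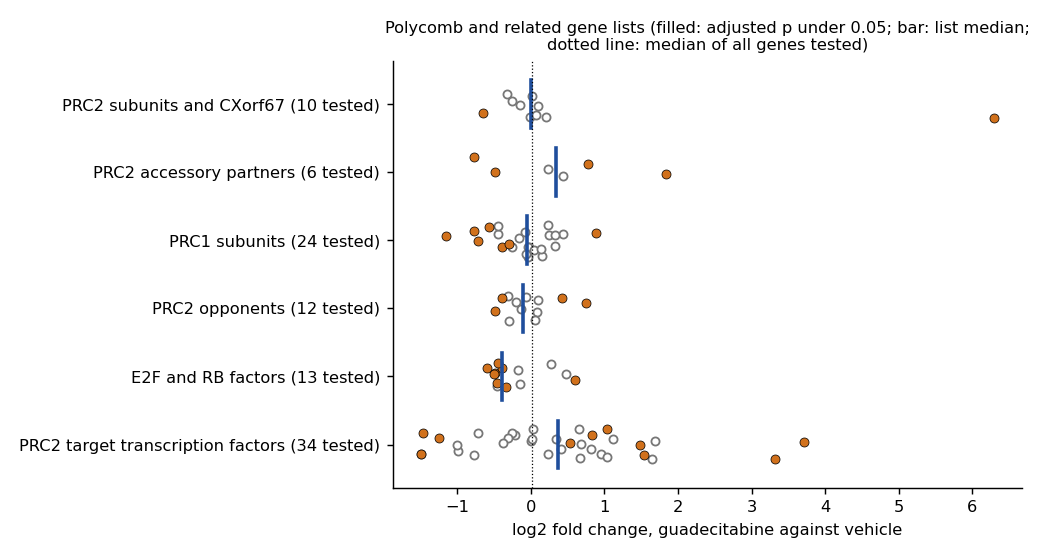
Log2 fold change (guadecitabine against vehicle) of each tested gene in the members and in 5 lists of related genes, with genes past an adjusted p of 0.05 in edgeR marked. The E2F and RB factors have the lowest median (−0.39) and the PRC2 target transcription factors the highest (0.38).

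PRC2 target transcription factors are developmental genes that carry the H3K27 mark in many cell types. Of 73 listed, 66 were in the table and 34 had enough reads to be tested, of which 7 rose, 3 fell and 24 did not pass the test, with a median of 0.38. The 32 listed genes that were not tested had 11 to 94 reads in vehicle replicate 3 and at most 15 in any other library. Without vehicle replicate 3, 18 of 33 tested genes were higher, so the count of 7 changes with that library. In that fit genes such as ISL1 and TBX2, with at most 1 read in each remaining vehicle library, passed the filter only through guadecitabine. Such genes had to differ to be tested, and the 19.3% of all genes belongs to the fit of all libraries. Nothing is therefore read from the 18.

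SIX2 and WT1, transcription factors of kidney development, rose from 179 ± 16.5 to 527 ± 128 and from 94.2 ± 11.4 to 266 ± 31.6 normalized counts (adjusted p = 0.000248 and 0.000163). MSX1, a homeobox gene of limb and face development, had 1, 0 and 33 raw reads in vehicle and 143, 56 and 149 in guadecitabine. NKX2-5, a heart transcription factor, had 1, 2 and 17 in vehicle and 53, 34 and 62 in guadecitabine. In both genes vehicle replicate 3 held nearly all reads of its group, and both passed the filter on low counts only through the guadecitabine libraries. Their tests are therefore not given, although both are counted among the 7 higher genes of the list. FOXA2, a factor of endoderm development, and IRX5, a homeobox gene, were among those that fell and were named after their values were seen, with log2 fold changes of −1.49 and −1.25.

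The position of CXorf67 on chromosome X was examined with the 5 nearest genes of the deposited table on each side. Genes that are not in the table could not be examined. Values are raw reads of the 3 vehicle and then the 3 guadecitabine libraries. The closest genes in the table had few reads outside vehicle replicate 3, so whether they share the pattern of CXorf67 was not resolved. NUDT10, 69.4 kb to the left, had 0, 0 and 23 reads and then 3, 1 and 1, and NUDT11, 81.2 kb to the right, had 1, 0 and 16 and then 3, 0 and 8. Both encode phosphohydrolases, and neither had enough reads to be tested.

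Further left, BMP15 (0, 0 and 11 reads in vehicle) and DGKK (0, 0 and 13) were at 0 in every guadecitabine library. SHROOM4 had 8, 8 and 32 reads in vehicle and 10, 6 and 8 in guadecitabine, and none of these 3 genes was tested. CCNB3, a cyclin gene 1050 kb away, had a log2 fold change of 0.04 and did not pass the test. CCNB3 was the only gene on this side with enough reads to be tested.

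To the right, GSPT2, a translation termination factor 335 kb away, fell by 0.44 on the log2 scale (adjusted p = 0.0190). MAGED1, an expressed gene of the MAGE family 394 kb away, fell from 5443 ± 384 to 3527 ± 201 normalized counts (adjusted p = 0.00138). Of the lower calls among the neighbours 1 was left without vehicle replicate 1 or 2 or guadecitabine replicate 3. The next genes in the table belong to cancer/testis families. SSX7, 1520 kb away, had 0, 1 and 0 reads in vehicle and 28, 23 and 31 in guadecitabine, a ratio of rates of 99.3 with a counting interval of 17.3 to 3971. XAGE3, 1740 kb away, had 0 reads in vehicle and 59, 24 and 32 in guadecitabine, a ratio of rates whose exact 95% interval begins at 37.2. Both passed the filter on low counts only through the guadecitabine libraries, as CXorf67 did, so their tests are not given. SSX and XAGE genes have near-identical relatives, so their counts are uncertain.

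**Figure D5:**
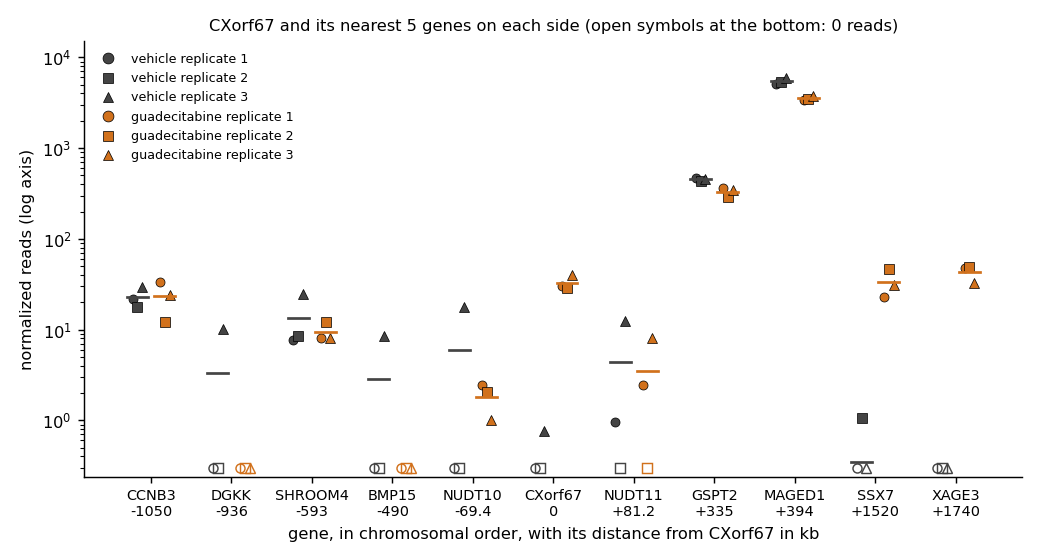
Normalized counts (log axis) of CXorf67 and the 5 nearest genes of the deposited table on each side, in chromosomal order. Points are the 3 vehicle and 3 guadecitabine libraries. CXorf67, SSX7 and XAGE3 are the genes at or near 0 in all vehicle libraries and above them in all guadecitabine libraries.

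The genes whose pattern over the 6 libraries was most like that of CXorf67, by Pearson's r of log2(normalized count + 0.5), were SSX1 (0.999), GLRX (0.999), STX11 (0.999), PAGE5 (0.998) and RNF44 (0.998). They are the 5 highest of 13322 genes, and the 6 points fall into the 2 groups of libraries, so r mainly reflects a difference between groups. SSX1, another cancer/testis gene, had 9, 8 and 29 raw reads in vehicle and 1281, 351 and 1158 in guadecitabine. For EZH2 the closest were TET1 (0.998), FAM228B (0.995), TMEM97 (0.994), ALKBH2 (0.994) and LACE1 (0.994). TET1, which oxidizes methylated cytosine, had 23, 22 and 61 raw reads in vehicle and 10, 0 and 4 in guadecitabine.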

How the data were processed

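RNA was prepared with the TruSeq kit and sequenced on the Illumina platform. The authors aligned reads to hg19 with STAR 2.3.1z, per the labels, and deposited raw counts of exon reads per RefSeq transcript, made with iRNA-seq. The deposited regularized log2 values were not used, nor were the fold change, standard error, score, p-value and adjusted p-value columns, which hold the authors' own DESeq2 comparison.

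Samples were grouped by their titles. Counts were fitted in R 4.3.3 with edgeR 4.0.16 (filterByExpr with a minimum count of 10, TMM, quasi-likelihood test, Benjamini-Hochberg adjustment over 13322 genes), after a test on simulated data. DESeq2 1.42.0 was an alternative. Standard errors and 95% intervals came from the quasi-likelihood statistic. The members and lists were chosen with earlier results of these data known. In each list the up to 4 genes with the largest absolute log2 fold change among those past the threshold are named, with all neighbours of CXorf67 and the 5 genes most like CXorf67 and EZH2. Promoter sequences came from RefSeq (GRCh38.p14) and exon models from GENCODE on GRCh37, read with Python 3.11.15. Library totals ranged from 8792127 to 22277442 counts. The values of 1 listed gene are not reported here.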

Additional observations from a re-analysis of the deposited data

How the results depend on the processing

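The members were chosen on these libraries, so their counts are given as a description. In the 6 fits without 1 library the log2 fold change ran from 5.88 to 7.98 for CXorf67, from −0.70 to −0.59 for EZH1 and from −0.42 to −0.22 for EZH2. The DESeq2 Wald test gave 2 members lower and 3 PRC2 partners higher, and so many partners were also higher with library totals alone and with at least 10 counts in every sample. With at least 10 counts in every sample CXorf67, SSX7 and XAGE3 were not tested, leaving 0 members and 0 neighbours higher. Library totals alone gave 1 opponent lower. Without a filter the median of all genes moved to −0.11, with 1 opponent lower and 2 E2F and RB factors higher and 4 lower.

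With a fold threshold of 1.5, 818 of all genes were higher and 696 lower. Members lower, opponents in both directions, E2F and RB factors in both directions, PRC2 partners lower and neighbours lower then numbered 0 each, and 1 PRC2 partner was higher and 1 PRC1 subunit lower.

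Same-numbered libraries did not deviate together (mean correlation −0.00808, from −0.0274 to 0.0305), so the replicate numbers were not taken to pair libraries. With the number as a block 2424 genes were higher and 2230 lower, 1 PRC2 partner was lower and 3 were higher, and CCNB3 reversed to −0.043.

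Without 1 library each in turn, all genes higher numbered 1706 to 3002 and lower 1629 to 2575, the lowest without guadecitabine replicate 3. Members lower ranged from 1 to 2, PRC2 partners higher from 2 to 3 and lower from 1 to 2, PRC1 subunits higher from 1 to 2 and lower from 2 to 5, and opponents higher from 1 to 2 and lower from 1 to 3. E2F and RB factors higher ranged from 0 to 2 and lower from 1 to 6, PRC2 targets higher from 5 to 18, and neighbours lower from 1 to 2. The log2 difference of EZH2 to EZH1 ranged from 0.28 to 0.37, RBBP4 to RBBP7 from 0.15 to 0.34, MTF2 to JARID2 from 0.00 to 0.24 and MTF2 to AEBP2 from 0.03 to 0.26. CCNB3 ranged from −0.31 (reversed, without guadecitabine replicate 1) to 0.33, and was −0.10 without vehicle replicate 2. The cause of these shifts was not tested. Depth limits CXorf67, whose vehicle level lies under 3 reads in every library.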
